A study of Mus musculus with 22 samples.

Results

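The genes described here encode 8 enzymes of cholesterol synthesis (Hmgcs1, Idi1, Fdps, Fdft1, Sqle, Lss, Cyp51 and Nsdhl), followed in mouse back skin through the growth and first rest of the hair follicles. They were chosen by name, as 8 of the 8251 genes that the array's annotation pairs singly with a probe set, and every probe set paired with exactly 1 of them was taken. That gave 13 of 12422 probe sets, of which 11 of 6211 were bright enough to test. The dim pair, 162281_at and 162217_r_at, belongs to Fdps and was not tested.

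Total RNA of back skin from CB6F1 mice was measured on 22 single-colour arrays. The transgenic mice carried K14-DN-Clim, which makes a dominant-negative version of CLIM (Ldb), a nuclear cofactor of LIM domain proteins, from the promoter of keratin 14, active in basal keratinocytes. Their wild-type littermates lacked it. Both genotypes were sampled at postnatal days 6 (P6) and 14 (P14), which the design text places in the first growth of the hair follicles, and at day 23 (P23), in their first resting phase, telogen. Each genotype had 5 arrays at P6 and 3 at either later age. The labels leave unsaid whether an array is 1 mouse, so the spread between arrays may be partly technical.

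Cholesterol is built from acetyl-CoA through mevalonate, the isoprenoids and squalene, and then through lanosterol, whose methyl groups and double bonds are removed or moved in turn. When sterol in the membrane of the endoplasmic reticulum falls, the transcription factor SREBP2 is released and raises the genes of nearly the whole route, while the related SREBP1 acts mainly on fatty acid synthesis. In skin the products go into the lipid barrier of the epidermis, into sebum and into the membranes of dividing follicle cells.

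The promoter sequences show the letters through which the route is commonly controlled. A RefSeq table (build GRCm38.p6) held promoters for 5 of the 8 genes, and the 250 bases before each start were searched on both strands for TCACNCCAC (a sterol regulatory element), CCAAT (the NF-Y box) and GGGCGG (the Sp1 box). All 5 held CCAAT and GGGCGG, which stood in 33.8% and 32.7% of the 32851 promoters in the table. TCACNCCAC was found in Hmgcs1 alone among the 5, 137 bases before the start, and in 1.05% of the promoters in the table. No 2 matches overlapped. A match is a description of the letters, not of binding. Of the 4 without it, Idi1 and Nsdhl each had a probe set called lower at P23 in some comparison, Lss and Cyp51 had none, and 2 probe sets of Nsdhl were called higher at P23 than at P6 in transgenic skin. The sequences below show the promoter with TCACNCCAC, that of Hmgcs1, beside 2 without it, those of Idi1 and Nsdhl. They are written 5′ to 3′ on the strand of the gene, and capitals mark the matches. A CCAAT on the opposite strand reads ATTGG here, and a GGGCGG there reads CCGCCC. The Hmgcs1 stretch is chr13:119690101-119690350 (plus strand), that of Idi1 is chr13:8885356-8885605 (plus strand) and that of Nsdhl is chrX:72918271-72918520 (plus strand).
Hmgcs1: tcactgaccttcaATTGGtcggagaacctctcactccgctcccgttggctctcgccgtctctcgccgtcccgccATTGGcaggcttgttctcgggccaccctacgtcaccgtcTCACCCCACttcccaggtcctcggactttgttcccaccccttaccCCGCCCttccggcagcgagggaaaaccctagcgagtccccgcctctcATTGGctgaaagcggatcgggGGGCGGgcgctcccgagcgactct
Idi1: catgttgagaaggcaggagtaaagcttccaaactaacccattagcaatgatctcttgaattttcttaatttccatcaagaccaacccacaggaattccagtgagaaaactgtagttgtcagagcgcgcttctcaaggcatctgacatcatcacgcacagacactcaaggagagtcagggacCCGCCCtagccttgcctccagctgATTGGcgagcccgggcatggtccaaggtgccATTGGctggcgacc
Nsdhl: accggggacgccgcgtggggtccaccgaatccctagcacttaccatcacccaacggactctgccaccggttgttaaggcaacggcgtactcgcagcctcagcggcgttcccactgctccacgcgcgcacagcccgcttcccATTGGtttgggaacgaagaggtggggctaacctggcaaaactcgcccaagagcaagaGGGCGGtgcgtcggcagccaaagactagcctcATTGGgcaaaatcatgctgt

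Levels are given as log2 of the deposited signal, and a difference of 1 is a doubling. They are compared between groups for the same probe set, never between probe sets, whose brightness also depends on their sequence. Differences are given with their standard error (SE) from limma, fitted to all 22 arrays with 1 spread for the 6 groups. Adjusted p-values are by Benjamini-Hochberg over the 6211 probe sets tested, and a probe set is called where this is under 0.05.

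The tissue itself changed widely with age. Between P14 and P23 in wild type, all 12 tested hair shaft and matrix markers fell (median log2 difference -7.10), 5 of 6 dermal fibroblast markers and 4 of 4 immune markers rose, and 4 of 5 proliferation markers fell. In that comparison 27% of all probe sets tested were called higher and 27.1% lower. Krt1, Krt10, Lor and Col1a1 were bright, while the probe sets of Krt14, Krt5 and Krt15, which define basal keratinocytes, were dim and were not tested. The 5 other basal markers (Itga6, Itgb4, Col17a1, Trp63 and Bnc1) were tested. Their mean log2 signal ran over the wild-type arrays from 9.53 to 9.71 at P6, 9.80 to 9.82 at P14 and 10.14 to 10.33 at P23. Over the transgenic arrays it ran from 9.38 to 9.62, 9.52 to 9.75 and 9.91 to 10.06, so the genotypes overlapped at P6 only. In whole skin fewer cells of a type and less RNA per cell cannot be told apart, and the part of these markers in the changes described below was not tested. The arrays' medians ran from log2 7.56 to 7.80, and 1 array stood apart: transgenic P6 replicate 5 had a mean correlation of 0.923 with the others of its group, against 0.954 to 0.982 for all other arrays. Results that rest on it are given with and without it.

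With age, Sqle and 1 probe set of Nsdhl were called lower in resting skin than at P14 in both genotypes, and Fdft1 and 1 probe set of Fdps in wild type, while Hmgcs1, Idi1, Lss and Cyp51 were not called. In wild-type skin 4 of the 11 probe sets passed as lower at P23 than at P14 and 0 as higher, those of Sqle, Fdft1, 1 of Fdps and 1 of Nsdhl. Over all probe sets tested, 27.1% passed as lower in that comparison, so the share among these genes was near the background. The median difference of the 8 genes, taking the brightest probe set of each, was -0.32, and that of all probe sets tested was -0.0035. All but Hmgcs1 lay below 0. Without wild-type P23 replicate 1 the median was -0.16, with 5 of 8 genes below 0, and 2 of the 11 probe sets passed as lower, those of Sqle and Nsdhl 98630_at. In transgenic skin 2 of 11 passed as lower, against 27.2% over all, those of Sqle and 1 of Nsdhl. Without transgenic P6 replicate 5, which enters the common spread, 5 of 11 passed in each genotype, those of Sqle, Fdft1, both of Fdps and Nsdhl 98630_at. For the fits in this paragraph that left out an array the share over all probe sets was not counted, so their counts are not read as a result about these genes. Every P23 array lay below every P14 array for the same 5 of 11 probe sets in both genotypes (Sqle, Fdft1, both of Fdps and Nsdhl 98630_at), against 33.1% of all probe sets in wild type and 33.3% in transgenic skin.

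**Figure D1:**
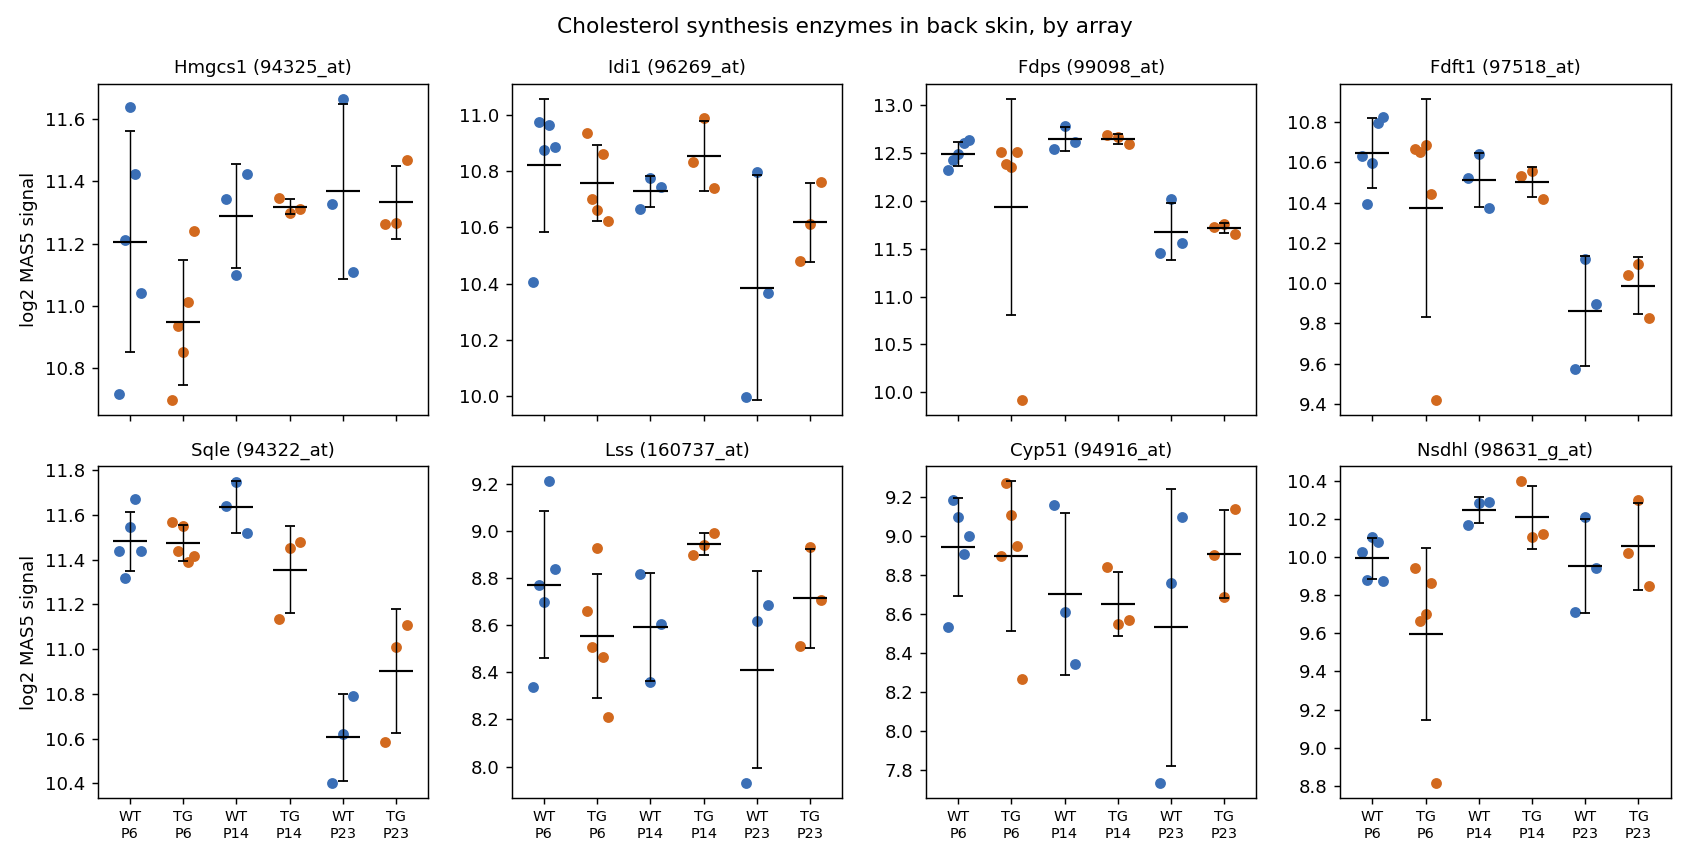
Log2 signal of the brightest probe set of each of the 8 genes on every array, in the order of the route from Hmgcs1 to Nsdhl; WT is wild type and TG transgenic, points are arrays (5 per group at P6, 3 at P14 and P23), lines are group means and bars their SD. Sqle, Fdps and Fdft1 are lower in both P23 groups than in both P14 groups, and 1 transgenic P6 array lies far below the others for Fdps (9.92) and Fdft1 (9.42).

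Sqle encodes squalene epoxidase, which adds the first oxygen to squalene and is a rate-controlling step. On the wild-type arrays its level was 11.44, 11.32, 11.54, 11.67 and 11.44 at P6, 11.64, 11.75 and 11.52 at P14, then 10.40, 10.62 and 10.79 at P23. The transgenic arrays read 11.57, 11.44, 11.55, 11.39 and 11.42 at P6, 11.13, 11.45 and 11.48 at P14, then 10.59, 11.01 and 11.11 at P23. In each genotype all 3 arrays at P23 lay below every array at the earlier ages. The group means ran, from the highest, wild type P14, wild type P6, transgenic P6, transgenic P14, transgenic P23 and wild type P23. Neighbours in that order overlapped, except transgenic P14 and transgenic P23. From P14 to P23 Sqle fell 2.04-fold in wild type (log2 difference -1.03, SE 0.13, limma adjusted p = 1.0e-06) and 1.37-fold in transgenic skin (-0.45, SE 0.13, adjusted p = 0.0063). The 2 falls differed by 0.58 (95% interval 0.19 to 0.97), and this difference did not pass (limma adjusted p = 0.63). Against P6, Sqle fell by 0.88 on the log2 scale in wild type and by 0.57 in transgenic skin. The wild-type falls passed with any 1 array left out, and the transgenic fall from P14 did not without transgenic P23 replicate 1, the lowest of its group (adjusted p = 0.067).

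Fdft1 encodes squalene synthase, which joins farnesyl diphosphate into squalene and commits it to sterols. Its wild-type levels were 10.63, 10.39, 10.60, 10.79 and 10.82 at P6, 10.52, 10.64 and 10.37 at P14, then 9.58, 10.12 and 9.90 at P23. In transgenic skin they were 10.67, 10.65, 10.69, 10.44 and 9.42 at P6, 10.53, 10.55 and 10.42 at P14, then 10.04, 10.10 and 9.83 at P23. The P23 arrays lay below every P14 array of their genotype, and the only array at P6 as low was transgenic replicate 5. In wild type Fdft1 fell 1.57-fold from P14 (log2 difference -0.65, SE 0.23, limma adjusted p = 0.021) and 1.72-fold against P6 (-0.78, SE 0.20, adjusted p = 0.0026). In transgenic skin the difference from P14 was -0.51 (SE 0.23, adjusted p = 0.062), which did not pass with all arrays. Without transgenic P6 replicate 5 the difference was the same and passed (limma adjusted p = 0.0019). The wild-type call against P14 was lost without wild-type P14 replicate 2 (adjusted p = 0.070) or wild-type P23 replicate 1 (adjusted p = 0.104).

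Fdps encodes farnesyl diphosphate synthase, whose product is shared by sterols, dolichol, ubiquinone and protein prenylation. Its brighter probe set, 99098_at, read 12.32, 12.42, 12.48, 12.60 and 12.63 in wild type at P6, 12.54, 12.78 and 12.61 at P14, then 11.45, 12.01 and 11.56 at P23. The transgenic arrays read 12.51, 12.38, 12.35, 12.50 and 9.92 at P6, 12.69, 12.66 and 12.59 at P14, then 11.73, 11.75 and 11.65 at P23. Both P23 groups lay below all other arrays except that of 9.92, transgenic P6 replicate 5. The P23 to P14 difference of 99098_at was -0.97 in wild type (SE 0.41, limma adjusted p = 0.052) and -0.93 in transgenic skin (SE 0.41, adjusted p = 0.060), and neither passed. The single low array enters the common spread. Without it the adjusted p-values were 2.8e-07 in wild type and 4.8e-07 in transgenic skin, with the differences unchanged. The other bright Fdps probe set, 160424_f_at, fell by 0.97 in wild type (SE 0.39, adjusted p = 0.039), a call lost in 4 of 7 fits that each left out 1 array. Its transgenic difference was -0.72 (adjusted p = 0.12, and 0.0012 without that array).

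Nsdhl encodes a dehydrogenase that takes methyl groups off the sterol ring, and its 3 probe sets did not move alike. Probe set 98630_at read 9.87, 9.90, 10.24, 10.18 and 10.25 in wild type at P6, 10.33, 10.22 and 10.37 at P14, then 9.38, 9.82 and 9.22 at P23. In transgenic skin it read 9.87, 9.72, 9.69, 9.97 and 9.31 at P6, 10.44, 10.28 and 10.25 at P14, then 9.37, 9.43 and 9.28 at P23. In both genotypes it was highest at P14, and all P23 arrays lay below all P14 arrays. From P14 to P23 it fell 1.78-fold in wild type (log2 difference -0.83, SE 0.16, limma adjusted p = 0.00012) and 1.95-fold in transgenic skin (-0.96, SE 0.16, adjusted p = 2.4e-05), and both calls held with any 1 array left out. The 2 other probe sets did not pass in either genotype in that comparison, and their arrays at P23 overlapped those at P14 except for 93868_at in transgenic skin, where they lay higher. A level for Nsdhl as a gene therefore depends on the probe set.

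**Figure D2:**
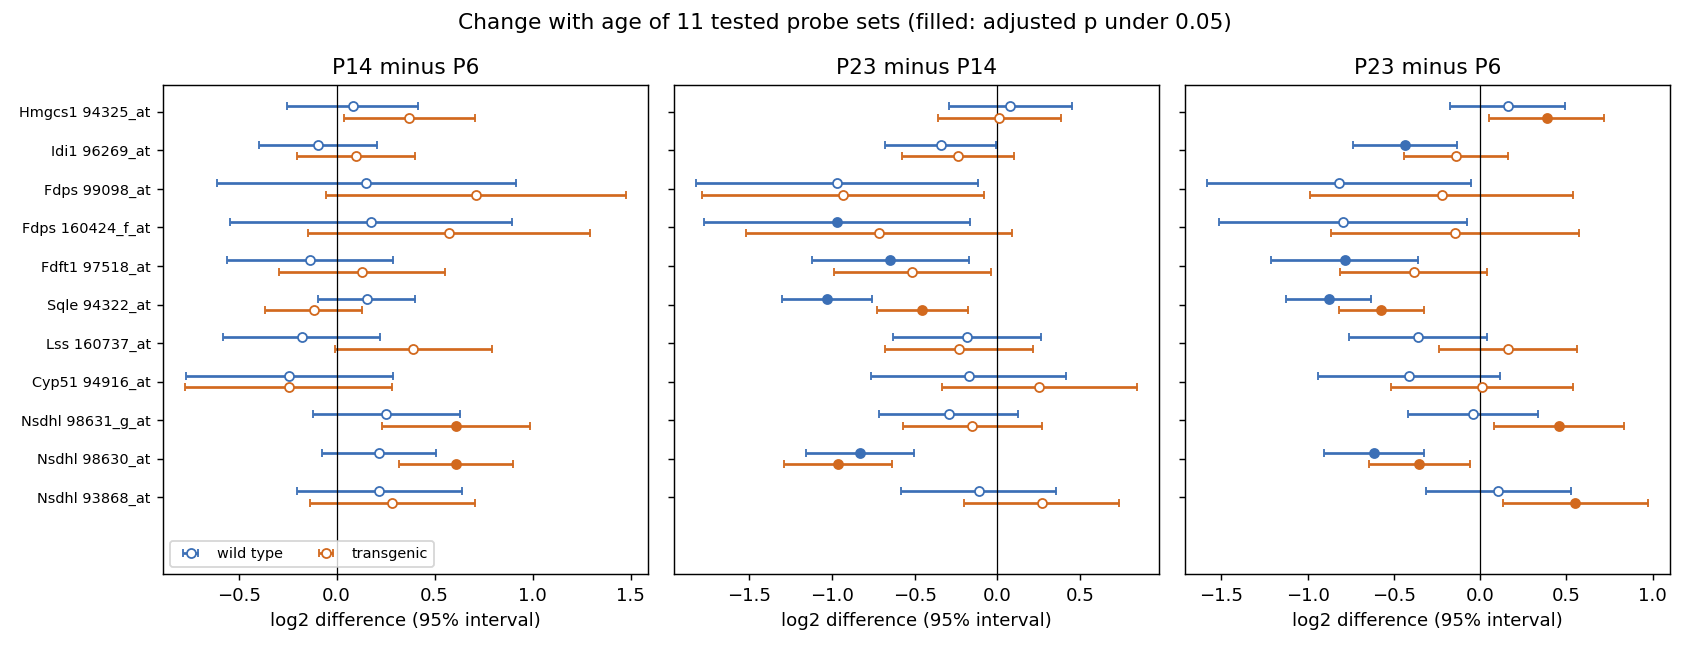
Log2 difference between ages, with its 95% interval, for the 11 tested probe sets in wild type (blue) and transgenic skin (orange); filled points have a limma adjusted p under 0.05. Sqle and Nsdhl 98630_at are filled at P23 against P14 in both genotypes, and Fdps has the widest intervals.

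Hmgcs1 encodes the enzyme that makes HMG-CoA, the substrate of the reductase that the statins block. Its levels at P14 were 11.34, 11.10 and 11.42 in wild type and 11.35, 11.30 and 11.31 in transgenic skin. At P23 they were 11.33, 11.67 and 11.11 in wild type and 11.26, 11.27 and 11.47 in transgenic skin, so the ages overlapped in both genotypes. The P23 to P14 difference was 0.08 in wild type (95% interval -0.29 to 0.45) and 0.01 in transgenic skin (-0.36 to 0.39). Those intervals leave out a fall of the size seen for Sqle in wild type. The group means followed another order than those of Sqle, with both P23 groups highest and transgenic P6 lowest.

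Idi1, Lss and Cyp51 did not pass between P14 and P23 in either genotype. Idi1 encodes the isomerase that interconverts the isoprenoid building blocks. It read 10.40, 10.97, 10.88, 10.96 and 10.89 in wild type at P6 and 9.99, 10.80 and 10.37 at P23. The groups overlapped, and the log2 difference between P23 and P6 was -0.44 (SE 0.14, limma adjusted p = 0.015). That call was lost without wild-type P23 replicate 1, the array at 9.99 (adjusted p = 0.19). Lss makes lanosterol from squalene epoxide, and its group means ran from 8.41 ± 0.42 (SD, n = 3) in wild type at P23 to 8.94 ± 0.05 (SD, n = 3) in transgenic skin at P14. Cyp51, the lanosterol demethylase, ran from 8.53 ± 0.71 (SD, n = 3) in wild type at P23 to 8.95 ± 0.25 (SD, n = 5) in wild type at P6. For both, the neighbouring groups in that order overlapped.

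Between P6 and P14 only Nsdhl was called among these enzymes, and only in transgenic skin. In wild type 0 of 11 probe sets passed, against 20.8% of all probe sets tested, and 0 had an unadjusted p under 0.05, against 32.7%. With 11 probe sets tested, this is not read as a lack of change in the route. Of 7 other enzymes of the route, described below, 1 was called lower at P14 in wild type and 0 in transgenic skin. The lowest of their wild-type differences was -0.55, that of Mvd (group means 9.36 at P6 and 8.81 at P14). In transgenic skin 2 of 11 passed as higher, against 12.1% over all, and both were of Nsdhl. Probe set 98630_at rose by 0.61 (SE 0.14, limma adjusted p = 0.0029), and 98631_g_at rose by 0.61 (SE 0.18, adjusted p = 0.016). The second call was lost without transgenic P14 replicate 1 (adjusted p = 0.081). Both calls held without transgenic P6 replicate 5, but the rises were smaller, 0.51 for 98630_at and 0.41 for 98631_g_at.

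Between P6 and P23 the difference between the genotypes in the change passed for none of the 11 probe sets (limma adjusted p = 0.99 for each). Some of the calls within each genotype depended on transgenic P6 replicate 5. Those of Sqle in both genotypes, and of Fdft1 and Nsdhl 98630_at in wild type, held with any 1 array left out. In wild type 4 of 11 probe sets passed as lower, against 28.3% over all, those of Sqle, Fdft1, Idi1 and Nsdhl 98630_at (-0.61, SE 0.14, limma adjusted p = 0.00086). The Fdps probe sets were at -0.82 (adjusted p = 0.066) and -0.79 (adjusted p = 0.058), and both passed without that array (adjusted p = 6.0e-07 and 0.00015). In transgenic skin 2 passed as lower, against 28.2% over all, and 3 as higher, against 26.7%. The lower ones were Sqle and Nsdhl 98630_at (-0.35, adjusted p = 0.038). The higher ones were Hmgcs1 (0.39, SE 0.16, adjusted p = 0.047), Nsdhl 98631_g_at (0.46, adjusted p = 0.036) and Nsdhl 93868_at (0.55, adjusted p = 0.025), so 1 gene had calls in both directions. The calls of Hmgcs1 and Nsdhl 98630_at were each lost in 7 of the 8 fits that left out 1 array, all but the one without transgenic P6 replicate 5. That of Nsdhl 98631_g_at was lost in 3, without transgenic P6 replicate 5 (0.26, adjusted p = 0.071) or transgenic P23 replicates 1 or 2, and that of Nsdhl 93868_at in 4, without transgenic P6 replicates 2 or 5 (0.40 without replicate 5, adjusted p = 0.064) or transgenic P23 replicates 2 or 3. Leaving out transgenic P6 replicate 5 moved the transgenic differences of Fdps and Fdft1 most. Fdps 99098_at went from -0.22 to -0.73 (adjusted p = 0.63 and 5.7e-06) and Fdps 160424_f_at from -0.14 to -0.59 (adjusted p = 0.75 and 0.0036). Fdft1 went from -0.39 to -0.62 (adjusted p = 0.12 and 0.00017). Without that array 6 of 11 probe sets passed in either direction in each genotype, against 57.8% of all probe sets tested in wild type and 57.6% in transgenic skin. Sqle, Fdft1, both of Fdps and Nsdhl 98630_at passed as lower in both genotypes.

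Between the genotypes no difference in these enzymes was called. Of the 11 probe sets 0 passed at any of the 3 ages, against, for P6, P14 and P23, 0.0322%, 0.0644% and 0.161% of all probe sets tested. Averaged over the 3 ages 0 passed, against 0.177% over all. The unadjusted p was under 0.05 for 2 of 11 probe sets at P6 (8.18% over all), 1 at P14 (6.26%), 1 at P23 (4.57%) and 0 in the average (7.02%). The genotype difference also did not change between ages in a way that passed: 0 of 11 in each of the 3 tests of that change, against 0.0161% (P14 against P6), 0% (P23 against P14) and 0.0161% (P23 against P6) over all, with 1 (6.7% over all), 1 (5.1%) and 0 (4.88%) at an unadjusted p under 0.05. The 95% intervals bound what was seen: for Sqle at P6 the difference was -0.01 (-0.22 to 0.20), and for Fdps 99098_at it was -0.56 (-1.22 to 0.10).

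At P6 all 8 genes lay lower in transgenic skin, with a median of -0.24 against -0.01 for all probe sets tested, and 1 array carried much of this. On transgenic replicate 5 Fdps 99098_at read 9.92, and the other 4 arrays read 12.35 to 12.51, so it was 5.73-fold below their mean. On that array 13 of the 6211 probe sets, this one included, were as far or farther below the other 4. Fdps 160424_f_at was 4.66-fold below the mean of the other 4, Fdft1 2.29-fold and Nsdhl 98631_g_at 1.97-fold. On the same array 7 of the 8 genes lay below the mean of the others (median -0.61), against 49.3% of all probe sets tested. Cyp51 differed by -0.79, Lss by -0.43, Idi1 by -0.17 and Sqle by -0.07, and Hmgcs1 lay above by 0.37, so the low reading was uneven along the route. Outside the 8 genes, Ggps1, which lengthens the product of Fdps for prenylation, differed by -2.65 on this array, Dhcr7 by -0.55 and Mvd by 0.34. Deviations on that array were wide in general, with an SD of 0.537 over all probe sets tested, against 0.219 to 0.363 on the other arrays. Without it the median of the 8 genes was -0.04, and 6 of 8 were below 0.

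After that array was left out, Hmgcs1 was the lowest of the 8 (-0.33) and Nsdhl 98631_g_at the next (-0.20). For Hmgcs1 the transgenic arrays read 10.70, 10.94, 10.85, 11.01 and 11.24, and the wild-type arrays 10.72, 11.21, 11.64, 11.43 and 11.04. The groups overlapped, and the difference over all arrays was -0.26 (SE 0.14, limma adjusted p = 0.65). Over all arrays Nsdhl was at -0.35 to -0.40 over its probe sets, and none passed (limma adjusted p = 0.44 to 0.63). Without transgenic P6 replicate 5 the differences were -0.20 for 98631_g_at, -0.27 for 98630_at and -0.19 for 93868_at. The P6 arrays were also compared within replicates 1 to 3 and within replicates 4 and 5, a split taken from earlier work on these data. Here it was slight: in wild type the correlations between arrays were 0.965 to 0.970 within replicates 1 to 3, 0.973 within 4 and 5, and 0.956 to 0.967 between the 2 sets. Transgenic replicate 4 was at 0.959 to 0.967 with replicates 1 to 3, whose lowest correlation among themselves was 0.969. Within replicates 1 to 3 alone, 6 of the 11 probe sets turned to small positive values, such as Fdft1 at 0.13 and Lss at 0.10. Within replicates 4 and 5, which include the low array, Fdps 99098_at was at -1.40 and Fdft1 at -0.88.

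At P14 the 8 genes went both ways, 4 higher and 4 lower in transgenic skin, with a median of -0.0030. For Lss all 3 transgenic arrays (8.90, 8.94 and 8.99) lay above all 3 wild-type arrays (8.82, 8.36 and 8.61), with a difference of 0.35 (SE 0.22, limma adjusted p = 0.86). For Sqle all 3 lay below (-0.28, SE 0.13, adjusted p = 0.78), and so they did for Nsdhl 93868_at (-0.28, SE 0.23, adjusted p = 0.91). Groups that did not overlap were common at this age: 6.84% of all probe sets tested had every transgenic array higher, and 8.37% had every one lower.

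At P23 the direction was the opposite of that at P6, with 7 of 8 genes higher in transgenic skin and a median of 0.18, against 0.0005 for all probe sets tested. Here too the median moved with 1 array, wild-type replicate 1. All 8 genes lay below the mean of the other 2 wild-type arrays on it (median -0.40), while 50.4% of all probe sets tested did. Wild-type replicate 2 stood as far the other way, with 0 of 8 genes below the mean of its other 2 arrays (median 0.38), against 47.6% of all probe sets. With 3 arrays each of these deviations contains the other array, so it is not settled which one was unusual. Cyp51 read 7.74 there and 8.76 and 9.10 on the others, and 12 of 6211 probe sets, this one included, were as far or farther below. Lss read 7.93 against 8.62 and 8.68, and Idi1 9.99 against 10.80 and 10.37. Unlike the low array at P6, this one had an ordinary correlation with its group (0.974). Of the other listed enzymes some were low on it too, with Me1 at -0.94, Ebp at -0.65, Fasn at -0.60, Scd2 and Acly at -0.57 each and Msmo1 at -0.51 against the mean of the other 2. Others were not, with Scd1 at 0.13 and Gpam at 0.27 in fatty acid synthesis, and Dhcr7 at 0.10 and Tm7sf2 at 0.39 among the later sterol enzymes. Without this array the median of the 8 genes was -0.02, with 3 above and 5 below 0, and the Cyp51 difference went from 0.38 to -0.02. The genotype difference at P23 minus that at P6 was above 0 for all 8 genes (median 0.41), against 51.8% of all probe sets tested, and none passed. It stayed above 0 for all 8 without transgenic P6 replicate 5 (median 0.28) and without wild-type P23 replicate 1 (0.23). Each of these fits still held the other array, and no fit left out both. Most of the 8 genes were low together on these arrays, so the shared sign is not read as 8 separate results.

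**Figure D3:**
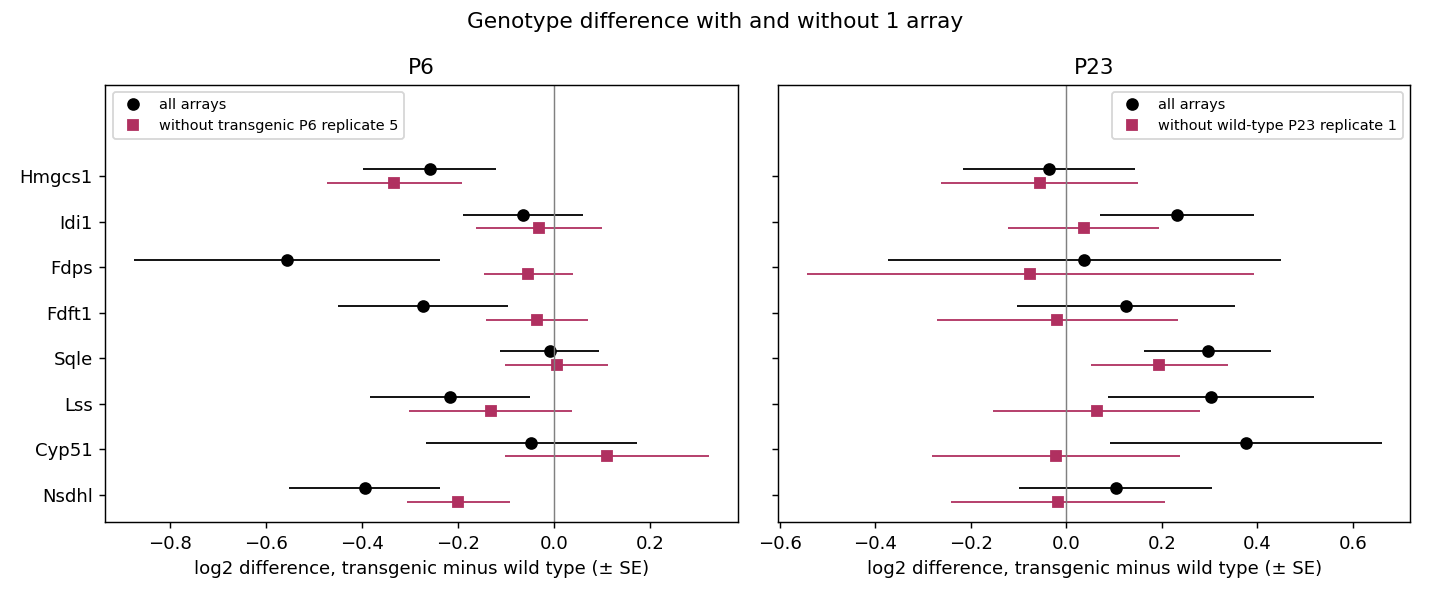
Log2 difference between transgenic and wild-type skin (with its SE from limma) for the brightest probe set of each gene at P6 and P23, with all arrays (black) and with 1 array left out (red). Without transgenic P6 replicate 5 the Fdps difference goes from -0.56 to -0.05, and without wild-type P23 replicate 1 that of Cyp51 goes from 0.38 to -0.02.

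The other enzymes of the route were called in both directions at P23. Of a list of 14, 9 were on the array with a probe set of their own and 7 were bright enough to test. Against P14, 1 rose and 1 fell in wild type, where 27% of all probe sets tested were called higher and 27.1% lower. In transgenic skin 1 rose and 2 fell, where 27.1% were called higher and 27.2% lower. With 7 genes tested, these counts are not read as a result about the list. Msmo1, which oxidises the methyl groups that Nsdhl later helps to remove, rose by 1.24 in wild type (SE 0.21, limma adjusted p = 3.5e-05) and by 1.28 in transgenic skin. Mvk, mevalonate kinase, fell by 0.41 and 0.46 (adjusted p = 0.022 and 0.011), and Tm7sf2, a sterol reductase, fell by 0.43 in transgenic skin. Mvd, which makes isopentenyl diphosphate, was lower at P23 than at P6 in wild type (-0.85, adjusted p = 2.2e-05) and in transgenic skin (-0.50, adjusted p = 0.0040). The list's median difference from P14 was -0.28 in wild type and -0.22 in transgenic skin.

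Of the regulators, 2 of 11 could be tested, and both were called at P23 against P14, a comparison in which 27% of all probe sets tested were called higher and 27.1% lower in wild type. Srebf1, which encodes SREBP1, rose by 0.36 in wild type (limma adjusted p = 0.024) and by 0.68 in transgenic skin (adjusted p = 0.00014). Mbtps1, a protease that releases SREBPs from the membrane, fell by 0.78 in each (adjusted p = 5.2e-05 and 5.1e-05). Genes of cholesterol uptake and export rose before rest. All 6 tested were higher at P14 than at P6 in both genotypes, from a log2 difference of 0.43 (Scarb1, an HDL receptor) to 1.44 (Abca1, a cholesterol exporter) in wild type, against 9.43% of all probe sets called higher there and 12.1% in transgenic skin. Against P14, the 2 tested probe sets of Abca1 went opposite ways at P23 in wild type. The brighter was called higher (0.61), while 97198_at was called lower (-0.58, limma adjusted p = 0.012) and lay at -0.40 in transgenic skin (adjusted p = 0.078), so no direction is given for the gene. Apoe, the lipid carrier, fell by 1.62 in wild type and Npc1, which moves cholesterol out of lysosomes, by 0.64.

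Most genes of fatty acid synthesis rose in resting skin. Of 8 genes tested, 6 rose and 1 fell in wild type from P14 to P23, and 5 rose and 1 fell in transgenic skin, against 27% and 27.1% of all probe sets called higher. Fasn, the fatty acid synthase, rose by 1.41 in wild type (SE 0.21, limma adjusted p = 5.9e-06) and by 1.63 in transgenic skin (adjusted p = 9.3e-07). Me1, which supplies NADPH for lipid synthesis, rose by 0.74 and 0.92. Scd2, a desaturase, fell by 0.69 and 0.55 on its brighter probe set. Its other tested probe set, 162077_f_at, fell by 0.51 in wild type (limma adjusted p = 0.00022) but was at 0.01 in transgenic skin (adjusted p = 0.95), where the arrays overlapped. Markers of lipid-making cells moved in the same comparison, and their part in it was not tested. The 7 adipocyte markers had 4 called higher and 0 lower at P23 against P14 in wild type (median 1.80), and the 5 sebaceous markers, among them Scd1, had 2 higher and 1 lower (median 0.52).

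**Figure D4:**
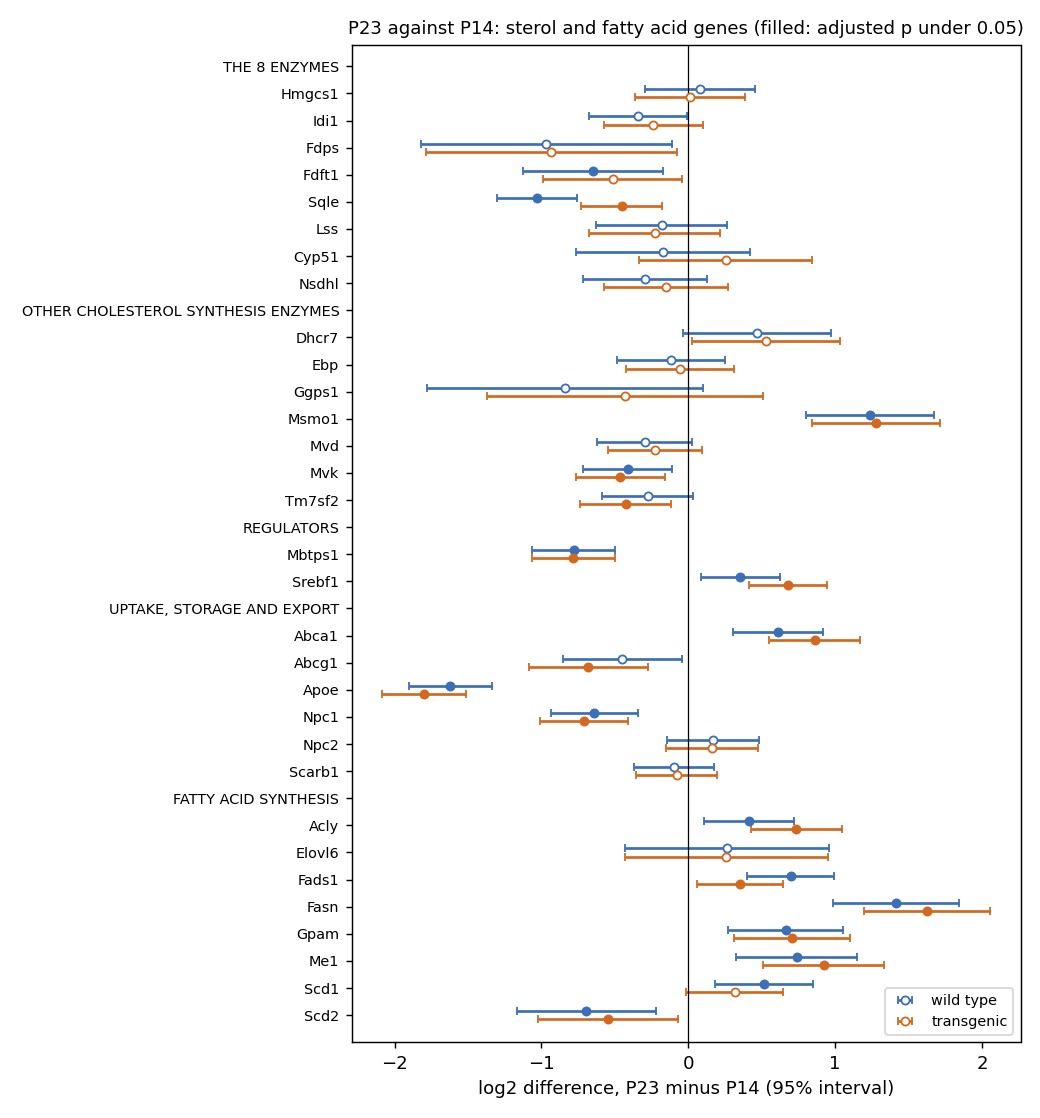
Log2 difference between P23 and P14, with its 95% interval, in wild type (blue) and transgenic skin (orange) for the 8 enzymes and 4 lists of related genes, 1 probe set per gene; filled points have a limma adjusted p under 0.05. Most of the 8 enzymes lie below 0, Msmo1 and most fatty acid genes lie above it, and Apoe is lowest at -1.62 and -1.80.

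The 8 genes varied together in part. The mean of their standardised levels over the 22 arrays was lowest on transgenic P6 replicate 5 and wild-type P23 replicate 1. Each gene's own correlation with that mean, which contains it, was 0.83 for Fdps, 0.83 for Fdft1, 0.80 for Idi1 and 0.80 for Lss, and 0.13 for Hmgcs1 (Pearson's r, 22 arrays, a description). With transgenic P6 replicate 5 left out of the correlation, these were 0.79, 0.76, 0.90, 0.77 and 0.17, in that order. The genes outside the 8 most like the mean over the 22 arrays were Pdia4 (r = 0.84), Psmc1 (0.83), Capza1 (0.83), Glrx (0.80) and Cct3 (0.80). Without that array they ran from 0.73 (Cct3) to 0.79 (Pdia4). Over the 6 group means the most alike were Zwint (0.98), Abcc5 (0.98), Sec14l2 (0.98), Chek2 (0.98) and Zfyve16 (0.97). Over the 22 arrays the same genes were at only 0.51, 0.66, 0.55, 0.26 and 0.49, in that order. The 2 sets share no gene, and all these points share the array's scaling and the widely changing tissue.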

How the data were processed

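The deposited table gives 1 intensity per probe set and array, a linear signal made by the authors with MAS5, per the submitters' processing notes (version and build not given in the sources used here). Each array had been scaled by the authors to one 2% trimmed mean (500.2 to 500.3). RNA came from a TRIzol extraction with RNeasy clean-up and carried biotin from in vitro transcription, per the labels' protocols. Groups and replicate numbers came from the titles. Signals were taken as log2 with no further normalization. After 66 array controls were left out, probe sets whose mean log2 signal reached the median of these means (7.67) were tested.

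The model was limma's (version 3.58.1, under R 4.3.3) over the 22 arrays together (1 mean per group, eBayes with a trend, Benjamini-Hochberg over 6211 probe sets, threshold 0.05). The code was run on simulated data with independent noise, equal on all arrays, and few changed probe sets. These data differ in both, so that run does not test the calls given here. The number of arrays limits the precision. Counts over genes use the brightest probe set of each.

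The 8 genes and the lists of other genes were chosen with earlier results of these data known. Named are all probe sets of the 8 genes, listed genes past the threshold in a comparison, listed genes on the 2 arrays described singly (chosen after their values were seen), and the 5 genes most like the mean. By the platform annotation 10855 probe sets had a single gene, 396 had several, and 1237 had none.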

Additional observations from a re-analysis of the deposited data

Results flagged for a closer look

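In 6 of 22 groups of 5 arrays checked, 1 for each tested probe set and genotype at P6, the highest or lowest array lay far from the rest, by the ratio of its gap to the group's range. Chance gives about 1 in 20 such groups. The groups share arrays and genes, so they are not independent. The share of all probe sets flagged by this rule was not counted, so the count is not read as a result about these genes. Of the 6, 4 were transgenic P6 replicate 5, at the low end: Fdps 99098_at (log2 9.92, ratio 0.938), Fdps 160424_f_at (9.60, ratio 0.792), Fdft1 (9.42, ratio 0.809) and Nsdhl 98631_g_at (8.82, ratio 0.753). The others were Idi1 on wild-type P6 replicate 1 (10.40, ratio 0.829) and Nsdhl 93868_at on wild-type P6 replicate 5 (8.67, ratio 0.734), both low. Groups of 3 arrays were too small to check in this way.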

How the results depend on the processing

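The alternatives changed the signal scale, the normalization, the filter, the variance model, the weighting of arrays, the arrays fitted, the replicate block and the P6 arrays used, or left out 1 array. The count of member probe sets called between genotypes stayed at 0 at each age, over the ages and in the tests between ages, in each of them. The count for transgenic skin at P23 against P6 (5) was 3 with quantile normalization, 2 with no filter, 8 with array weights, 2 with only the groups compared, 3 with the replicate block, 2 within P6 arrays 4 and 5, and 1 to 6 with 1 array left out. That for P23 against P14 in transgenic skin (2) was 5 with array weights, 5 with only the groups compared, 4 with the replicate block, and 1 to 5 with 1 array left out. That for P14 against P6 in transgenic skin (2) was 1 with only the groups compared, 4 within P6 arrays 4 and 5, and 1 to 3 with 1 array left out. In wild type the count for P14 against P6 (0) was 1 with no filter, that for P23 against P14 (4) was 2 to 6 with 1 array left out, and that for P23 against P6 (4) was 3 to 6. Save for some fits without transgenic P6 replicate 5, the share over all probe sets was not counted in these alternatives. A change in these counts is therefore not read as a result about these genes. Replicate numbers shared between genotypes did not pair the arrays (correlations of deviations from -0.047 to 0.25).

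The genotype difference at P6 turned to a positive sign within P6 arrays 1 to 3 for Sqle (0.086), Fdps 99098_at (0.0060), Fdft1 (0.13), Lss (0.095), Cyp51 (0.15) and Idi1 (0.015), and with array weights for Cyp51 (0.14). Within P6 arrays 4 and 5 the transgenic P23 to P6 difference did so for Fdps 99098_at (0.50), Fdps 160424_f_at (0.63) and Fdft1 (0.057). These splits keep fewer arrays, and the cause was not tested. With 1 array left out, further differences that were not called changed sign. At P6 the genotype difference ran from -0.050 to 0.038 for Sqle and from -0.15 to 0.11 for Cyp51. At P23 it ran from -0.16 to 0.11 for Hmgcs1, -0.075 to 0.21 for Fdps 99098_at, -0.0007 to 0.25 for Fdps 160424_f_at, -0.019 to 0.25 for Fdft1, -0.021 to 0.66 for Cyp51, -0.019 to 0.23 for Nsdhl 98631_g_at, -0.24 to 0.060 for Nsdhl 98630_at and -0.16 to 0.30 for Nsdhl 93868_at. The P23 to P6 difference ran from -0.17 to 0.082 for Nsdhl 98631_g_at and -0.099 to 0.37 for Nsdhl 93868_at in wild type, and from -0.59 to 0.046 for Fdps 160424_f_at in transgenic skin.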
